A study of Mus musculus with 54 samples.

Results

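The genes described here drive cells through mitosis: kinases that open it, the parts of the kinetochore and spindle that move chromosomes, the checkpoint that holds anaphase back, and the machinery that splits the cell. They are a list of 37 mouse gene symbols, and rows were picked by symbol alone. Of the 37, 36 had a row among the 13611 genes of the deposited FPKM table. The exception was Cks2. FPKM is the number of fragments per kilobase of transcript, scaled to a fixed number of mapped fragments, and all 54 libraries of the series were used.

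The irradiated groups came from C57B6 mice (small intestine, large intestine, thymus and spleen) and from NIH3T3, a mouse embryonic fibroblast line. Mice and cells were given 10 Gy of gamma radiation. A single library was made per tissue for each of the hours 1 to 8 and for 24 h, with the hours 9 to 12 added in NIH3T3. The unirradiated reference was a single 0 h library per system, with no untreated library at a later hour, so time, handling or culture cannot be told apart from radiation. Libraries of neighbouring hours served as replicates, and the labels give neither the ages of the animals nor whether libraries came from separate animals or cultures. P-values therefore measure the spread between libraries of a window. That spread holds any change from hour to hour within the window, and the rest of it may be technical. In bulk tissue, fewer dividing cells and less RNA per cell cannot be told apart.

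Mitotic genes are transcribed mainly in G2 and M phase, and most of their transcripts are low or absent in resting cells. After DNA damage, p53 induces Cdkn1a, the gene for the cyclin-dependent kinase inhibitor p21. Cells then hold their RB family proteins unphosphorylated, and the DREAM complex silences many mitotic promoters through the cell cycle genes homology region (CHR), while NF-Y binds their CCAAT boxes. Crypts of the intestine, the cortex of the thymus and the blood-forming and lymphoid compartments of mouse spleen hold the dividing cells of these organs.

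Promoter windows from RefSeq (GRCm38.p6), running from 250 bases before to 50 bases after the gene start, were matched for 31 of the 36 genes. The unmatched genes were Kif20a, Pif1, Tpx2, Cdc25c and Aurkb. Windows were searched on both strands for a CHR-type motif, TTTGAA or TTCGAA, and for the CCAAT box (the 2 can share at most 1 end letter). The 4 windows printed below belong to the genes with the lowest adjusted p for the increase at 6 to 8 h in small intestine among those that hold both motifs. They are shown 5′ to 3′ in the direction of transcription, with the matches in capitals, so that a match on the other strand appears as TTCAAA for the motif TTTGAA and as ATTGG for the CCAAT box. Hmmr (chr11:40733388-40733687, minus strand) held 1 CHR-type match and 5 CCAAT boxes. Cenpf (chr1:189688037-189688336, minus strand) and Cdc20 (chr4:118437294-118437593, minus strand) each held 1 CHR-type match and 2 CCAAT boxes. Kif11 (chr19:37376132-37376431, plus strand) held 1 of each.
Hmmr: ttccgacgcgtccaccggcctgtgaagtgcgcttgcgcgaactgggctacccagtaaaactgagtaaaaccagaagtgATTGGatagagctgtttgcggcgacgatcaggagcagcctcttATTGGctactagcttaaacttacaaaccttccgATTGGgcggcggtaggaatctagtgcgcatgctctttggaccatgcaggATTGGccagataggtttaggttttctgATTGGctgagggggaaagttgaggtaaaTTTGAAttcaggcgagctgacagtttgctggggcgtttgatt
Cenpf: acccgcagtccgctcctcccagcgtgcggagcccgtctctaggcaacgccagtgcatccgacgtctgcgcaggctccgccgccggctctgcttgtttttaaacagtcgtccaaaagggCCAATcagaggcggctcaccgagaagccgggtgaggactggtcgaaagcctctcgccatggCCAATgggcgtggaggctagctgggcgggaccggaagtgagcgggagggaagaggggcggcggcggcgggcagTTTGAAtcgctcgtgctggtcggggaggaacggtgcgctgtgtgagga
Cdc20: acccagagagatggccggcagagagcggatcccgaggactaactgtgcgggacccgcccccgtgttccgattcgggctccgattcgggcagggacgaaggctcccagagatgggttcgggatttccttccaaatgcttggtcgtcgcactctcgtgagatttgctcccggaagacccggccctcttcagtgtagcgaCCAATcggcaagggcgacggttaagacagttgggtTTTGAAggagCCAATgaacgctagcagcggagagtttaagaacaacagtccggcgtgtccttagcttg
Kif11: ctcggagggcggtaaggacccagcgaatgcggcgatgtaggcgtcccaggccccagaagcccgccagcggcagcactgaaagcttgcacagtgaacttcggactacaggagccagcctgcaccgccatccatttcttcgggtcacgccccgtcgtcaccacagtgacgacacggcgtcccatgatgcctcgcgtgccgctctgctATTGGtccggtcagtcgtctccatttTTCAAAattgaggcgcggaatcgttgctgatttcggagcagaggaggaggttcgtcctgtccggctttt

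Across the 31 windows, 26 (83.9%) held a CHR-type motif, 24 (77.4%) a CCAAT box and 23 (74.2%) both. Where a gene had more than 1 listed window, only the first was counted. Of 27025 genes with 1 window each, 19.4% held the CHR-type letters, 37.9% a CCAAT box and 7.7% both. Among 45 other mitotic genes, both motifs stood in 53.3% of windows, and among 24 S phase genes in 20.8%. Of the 34 CHR-type matches in the listed genes, 23 lay within 50 bases of the gene start, with a median centre 7.5 bases before it (-7.5). The 57 CCAAT matches lay further upstream, with a median centre at -69.0. No match of either motif stood in the counted windows of Nuf2, Birc5, Nusap1 and Tacc3. Sequence outside these windows, including any other start of these genes, was not counted. These matches are letters in a window and were not tested for binding.

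**Figure D1:**
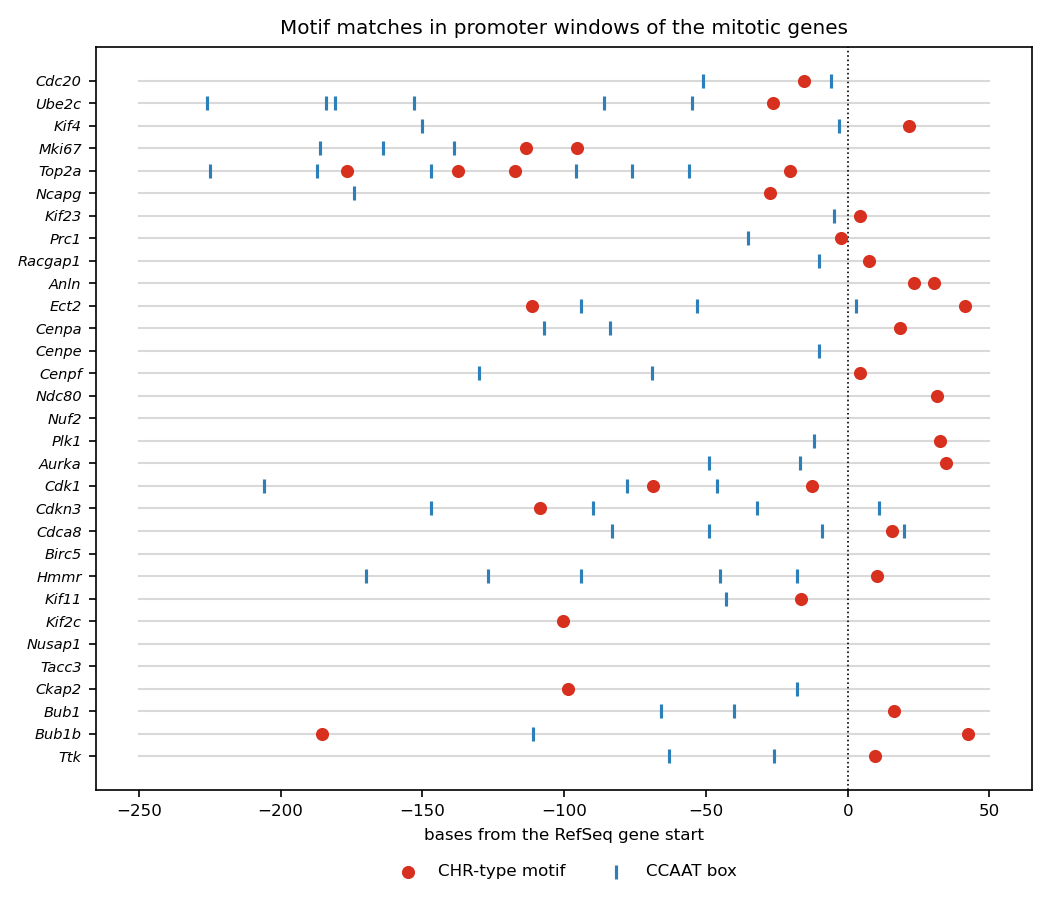
Positions of CHR-type motifs (red circles) and CCAAT boxes (blue bars) in the promoter windows of 31 mitotic genes, against distance in bases from the RefSeq gene start (dotted line). CHR-type matches crowd around the start, 23 of 34 within 50 bases of it, and CCAAT matches lie mostly upstream.

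Depth is known only roughly, because fragment totals were not at hand. Judged by the smallest steps between low values, libraries of one system differed in depth by up to 1.92 times (small intestine), 2.08 times (large intestine), 2.39 times (spleen), 4.23 times (thymus) and 2.46 times (NIH3T3). Foreign transcripts were present in a few libraries. Thymus at 24 h held 6416 FPKM summed over 6 enterocyte markers, against 2.76 to 18.2 FPKM in the other thymus libraries. The spleen library at 6 h held 46235 FPKM of pancreatic enzyme genes, large intestine at 2 h held 22125 FPKM of enterocyte markers, and large intestine at 0 h held 27.6 FPKM of keratinocyte markers. Large intestine at 1 h stood out the other way. It held 82.8 FPKM of the enterocyte gene Fabp2, against 1114 to 8282 FPKM in the other large intestine libraries. Defining markers were present in each system: enterocyte markers in small intestine (52127 to 70178 FPKM summed), colonocyte markers in large intestine (7190 to 31413 FPKM), B cell markers in spleen, T cell markers in thymus and fibroblast markers in NIH3T3 (601 to 1223 FPKM). Cdkn1a, the p21 gene, rose in spleen (5.41 ± 0.37, limma adjusted p = 1.51e-09), thymus (3.86 ± 0.37, limma adjusted p = 5.33e-07) and NIH3T3 (1.20 ± 0.12, limma adjusted p = 3.36e-04) over the first 5 h, as log2 change of FPKM + 1 ± SE with a Benjamini-Hochberg adjusted p. In small intestine (1.11 ± 0.37, limma adjusted p = 0.359) and large intestine (1.41 ± 0.37, limma adjusted p = 0.0548) its difference was positive and did not pass the threshold.

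In small intestine the mitotic genes were lowest at 2 h and above the 0 h library by 6 h. At 2 h, 34 of 36 genes stood below 0 h, with a median log2 difference of -1.13, and 23 genes had their lowest value of the first 8 h there. At 6 h and at 8 h, 34 of 36 stood above 0 h, with median differences of 0.68 and 0.79, while 24 did so at 7 h. Over 6 to 8 h against 1 to 5 h, 15 of 35 tested genes rose and none fell, where 0.439% of all 11392 genes tested rose (limma, Benjamini-Hochberg adjusted p below 0.05). All 35 had a positive difference, with a median of 1.13 against -0.03 over all genes. Of the 15 called genes, Cenpf passed the filter on low FPKM (an average of 1 or more) only through its 6 to 8 h libraries. Its other libraries averaged 0.743 FPKM. Without the filter, Cdk1 and Racgap1 of the 15 did not pass the threshold (limma adjusted p = 0.0539 for each). The 6 largest called increases were those of Hmmr (1.60 ± 0.27, limma adjusted p = 0.00611), Kif20a (1.57 ± 0.31, limma adjusted p = 0.0187), Cdc20 (1.49 ± 0.30, limma adjusted p = 0.0187), Nuf2 (1.44 ± 0.26, limma adjusted p = 0.0107), Prc1 (1.36 ± 0.29, limma adjusted p = 0.0307) and Tpx2 (1.34 ± 0.28, limma adjusted p = 0.0241). These genes serve the spindle (Hmmr, Tpx2), the midzone of the dividing cell (Kif20a, Prc1), the kinetochore (Nuf2) and anaphase onset (Cdc20).

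The count in small intestine rested on single libraries. Leaving out the 8 h library left 0 calls, leaving out 6 h left 1, leaving out 2 h left 2, and leaving out 5 h gave 23. A fit of small intestine alone called 0. The difference of 1 to 5 h from 0 h reached the threshold in 0 of 35 genes, where 0.0176% of all genes fell, although 33 of 35 differences were negative (median -0.55) and 6 had an unadjusted p below 0.05. At 24 h against 0 h, 0 of 35 fell and 2 had an unadjusted p below 0.05, with a background of 0.079% and a median of -0.13. The largest late difference was that of Cdkn3, a phosphatase that acts on Cdk1 and Cdk2, at 0.528 FPKM at 24 h against 9.53 FPKM at 0 h (-2.79 ± 0.81, limma adjusted p = 0.298). Summed intestinal stem cell markers were 208 FPKM at 0 h, 120 to 230 FPKM at 1 to 5 h and 82.5 to 137 FPKM at 6 to 8 h; their part in the result was not tested.

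**Figure D2:**
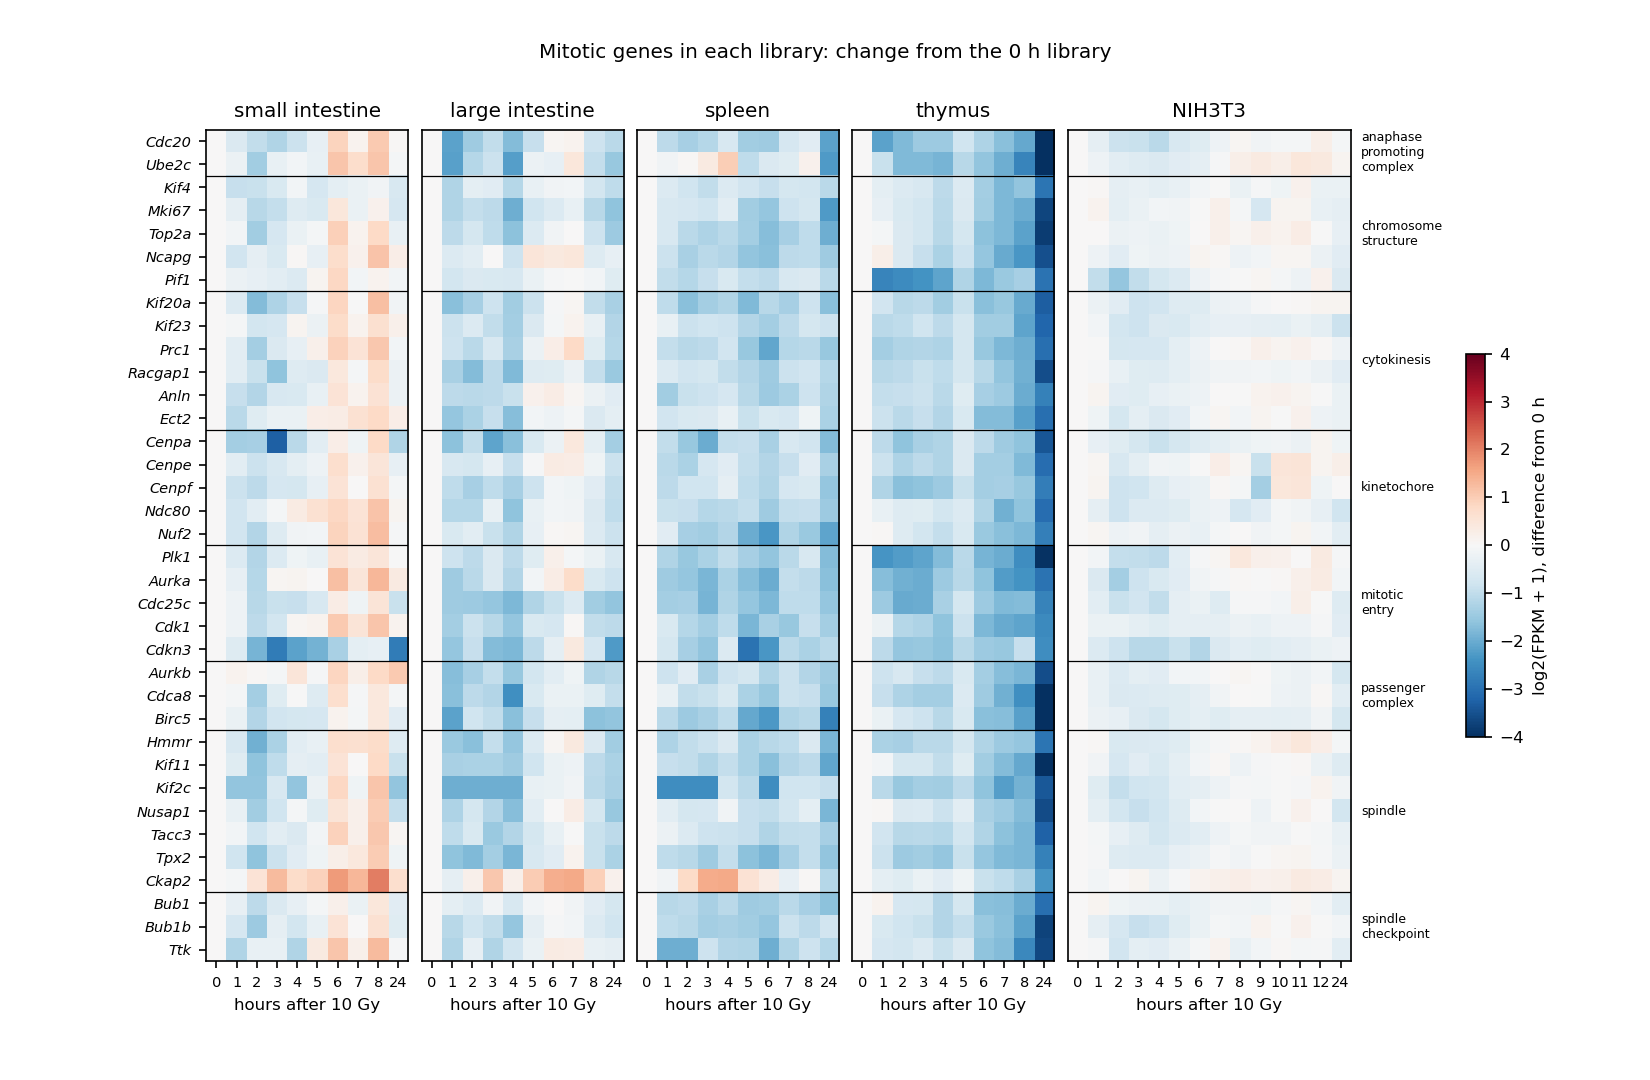
Log2(FPKM + 1) of each mitotic gene in each library minus the 0 h library of the same system (red higher, blue lower), with hours after 10 Gy along each panel and genes grouped by role; the scale ends at 4, and 5 thymus values at 24 h lie past it, at -4.01 to -4.23. Small intestine turns red at 6 and 8 h, thymus darkens through 24 h, and NIH3T3 stays within pale shades.

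Large intestine was lowest at 4 h and briefly back at its 0 h level at 7 h. All 36 genes were below 0 h at 1 h and 35 at 4 h, with medians of -1.21 and -1.52, and 22 genes had their lowest value at 4 h. At 7 h the median was back at 0.04, with 19 genes above and 17 below 0 h, and 25 genes had their highest value of the 8 h there. At 8 h only 1 gene was above 0 h. The decrease over 1 to 5 h was called in 0 of 31 tested genes, where 0.27% of all 11854 genes fell, with 30 of 31 differences negative, a median of -1.09 and 24 unadjusted p-values below 0.05. Without the library at 1 h, 2 h or 5 h it was called in 1, 2 and 3 genes, and in 1 without both 1 and 2 h. The following increase over 6 to 8 h was positive in 31 of 31 genes (median 0.78) and passed the threshold in 1, Hmmr (1.21 ± 0.27, limma adjusted p = 0.0402), where 0.363% of all genes rose and 26 members had an unadjusted p below 0.05. Without the 5 h library 13 genes were called, 0 without the 2 h, 6 h or 7 h library or without both 1 and 2 h, 3 without 1 h or 3 h, and 2 without 8 h. A fit of large intestine alone, a pseudocount of 0.1 and quantile normalization each left 0, and windows of 1 to 4 h and 5 to 8 h gave 6. In every system the changes over the first 5 h and at 24 h share the 0 h library. At 24 h, 0 of 31 fell with 16 unadjusted p-values below 0.05, beside a background of 0.0759% and a median of -1.10.

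In spleen nearly all mitotic genes were below the 0 h library from the first hour to 24 h. At 1 h all 36 were below 0 h (median -0.94), and never more than 2 of 36 were above it at any hour. Over 1 to 5 h, 5 of 34 tested genes fell, where 2.07% of all 11791 genes fell, and the median was -1.07. These were the kinase Aurka (-1.55 ± 0.45, limma adjusted p = 0.0453), the Cdk1-activating phosphatase Cdc25c (-1.46 ± 0.40, limma adjusted p = 0.0298), the polo kinase Plk1 (-1.27 ± 0.33, limma adjusted p = 0.0241) and the checkpoint kinases Bub1b (-1.24 ± 0.34, limma adjusted p = 0.0336) and Bub1 (-1.19 ± 0.30, limma adjusted p = 0.0206). Without the 3 h library or in a fit of spleen alone 2 genes were called, with a pseudocount of 0.1 there was 1, and with windows of 1 to 4 h and 5 to 8 h there were 0. Cdc25c passed the filter in spleen only through its 0 h library, the others averaging 0.802 FPKM. Over 6 to 8 h against 1 to 5 h, 0 of 34 rose and 1 fell, with backgrounds of 15.4% higher and 12.2% lower, and 1 unadjusted p below 0.05. That gene was Ckap2, a spindle protein (-0.84 ± 0.25, limma adjusted p = 0.0166), and no gene was called without the library at 3 h, 4 h or 7 h, in a fit of spleen alone or with the other windows. At 24 h, 18 of 34 fell against 0 h, where 7.47% of all genes fell, with a median of -1.54.

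The largest called decreases in spleen at 24 h were those of the passenger protein Birc5 (-2.71 ± 0.64, limma adjusted p = 0.00512), the proliferation antigen Mki67 (-2.27 ± 0.52, limma adjusted p = 0.003900), Cdc20 (-2.13 ± 0.57, limma adjusted p = 0.0118), Nuf2 (-2.10 ± 0.50, limma adjusted p = 0.00525), the spindle motor Kif11 (-2.08 ± 0.49, limma adjusted p = 0.00484) and Top2a (-1.95 ± 0.53, limma adjusted p = 0.0126). Marker sums moved with them. The 7 B cell markers summed to 2475 FPKM at 0 h, 650.4 to 1909 FPKM at 1 to 5 h, 353 to 379.6 FPKM at 6 to 8 h and 329.6 FPKM at 24 h. The 8 erythroid markers summed to 684 FPKM at 24 h, with Klf1 and Car1 at 0, against 31106 FPKM at 0 h. The 5 macrophage markers summed to 4987 FPKM at 24 h against 1596 FPKM at 0 h. The 4 neutrophil markers summed to 8693 to 12794 FPKM at 6 to 8 h against 543 to 1327 FPKM at 1 to 5 h. The part of these shifts in the result was not tested.

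In thymus the median of the mitotic genes was below 0 h from the first hour, a little higher at 5 h than at 4 h, and lowest at 24 h. The median log2 difference from 0 h was -0.85 at 1 h, -1.18 at 4 h, -0.69 at 5 h, -1.97 at 8 h and -3.20 at 24 h. From 2 h on, 0 of 36 genes were above 0 h at any hour. Over 1 to 5 h, 5 of 36 fell, where 0.901% of all 12426 genes fell. These were Pif1, a DNA helicase (-2.17 ± 0.33, limma adjusted p = 2.62e-04), Plk1 (-1.91 ± 0.33, limma adjusted p = 0.001200), Aurka (-1.64 ± 0.45, limma adjusted p = 0.0433), Cdc25c (-1.49 ± 0.40, limma adjusted p = 0.0367) and the kinetochore protein Cenpf (-1.37 ± 0.29, limma adjusted p = 0.00772). Without the library at 2 h or 4 h, 3 were called, likewise in a fit of thymus alone, and 1 with a pseudocount of 0.1. Over 6 to 8 h against 1 to 5 h, 19 of 36 fell further and 1 rose, with backgrounds of 13.4% lower and 18.6% higher. In all 20 were called, 11 with windows of 1 to 4 h and 5 to 8 h, and 10 without the 8 h library, the shallowest of the tissue.

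The largest called decreases in thymus at 6 to 8 h against 1 to 5 h were those of the condensin subunit Ncapg (-1.30 ± 0.29, limma adjusted p = 0.00149), the checkpoint kinase Ttk (-1.29 ± 0.34, limma adjusted p = 0.00486), Top2a (-1.22 ± 0.27, limma adjusted p = 0.00148), Bub1 (-1.18 ± 0.20, limma adjusted p = 9.81e-05), Birc5 (-1.15 ± 0.33, limma adjusted p = 0.0101) and Kif11 (-1.13 ± 0.25, limma adjusted p = 0.00138). The gene that rose was Pif1 (0.64 ± 0.22, limma adjusted p = 0.0286), whose lowest value of the first 8 h was at 1 h. At 24 h all 36 tested genes fell against 0 h, where 18.6% of all genes fell. The largest were Cdc20 (-4.23 ± 0.57, limma adjusted p = 3.29e-06), Ube2c (-4.09 ± 0.83, limma adjusted p = 3.68e-04), Kif11 (-4.07 ± 0.49, limma adjusted p = 6.77e-07), Birc5 (-4.02 ± 0.64, limma adjusted p = 2.47e-05), Cdca8 (-4.01 ± 0.66, limma adjusted p = 3.74e-05) and Plk1 (-3.95 ± 0.43, limma adjusted p = 1.56e-07). The 24 h library is single and carries the enterocyte transcripts described above. Double positive thymocyte markers summed to 1439 FPKM at 0 h, 1103 to 1473 FPKM at 1 to 5 h, 551.8 to 773 FPKM at 6 to 8 h and 24.3 FPKM at 24 h. T cell markers summed to 338 FPKM at 24 h against 1936 FPKM at 0 h. Their part in the result was not tested.

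NIH3T3 cells showed a shallow low and a return. The median gene was at -0.59 against 0 h at 2 h and -0.56 at 4 h, and 15 and 14 genes had their lowest value at those hours. It was at 0.07 at 11 h, when 22 of 36 genes were above 0 h. Over 1 to 5 h against 0 h, 7 of 36 fell, where 0.655% of all 10385 genes fell, with a median of -0.46. The largest were Pif1 (-0.95 ± 0.22, limma adjusted p = 0.0461), Cdkn3 (-0.89 ± 0.21, limma adjusted p = 0.0439), the microtubule depolymerase Kif2c (-0.68 ± 0.17, limma adjusted p = 0.0498), Bub1b (-0.65 ± 0.16, limma adjusted p = 0.04800), the centromeric histone Cenpa (-0.62 ± 0.13, limma adjusted p = 0.0276) and Kif20a (-0.56 ± 0.14, limma adjusted p = 0.0475). Leaving out the 4 h library left 0 calls, leaving out 3 h left 2 and leaving out 1 h gave 17. Quantile normalization, or testing without the filter on low FPKM, left 0, and windows of 1 to 4 h and 5 to 8 h left 1.

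Over 6 to 8 h against 1 to 5 h, 6 of 36 genes rose in NIH3T3, where 0.857% of all genes rose, and 36 of 36 differences were positive (median 0.29). These were Pif1 (0.86 ± 0.15, limma adjusted p = 0.0171), Plk1 (0.85 ± 0.18, limma adjusted p = 0.0328), Aurka (0.72 ± 0.14, limma adjusted p = 0.0275), the spindle protein Nusap1 (0.64 ± 0.11, limma adjusted p = 0.0171), Bub1b (0.50 ± 0.10, limma adjusted p = 0.0313) and Kif2c (0.48 ± 0.11, limma adjusted p = 0.0417). Without the library at 7 h or 8 h, 0 were called, 3 without 3 h or 4 h, 12 without 1 h, and 2 without the filter on low FPKM. From 6 to 8 h to 9 to 12 h, 0 of 36 changed and 5 had an unadjusted p below 0.05, beside a background of 0%. At 24 h against 0 h, 6 of 36 fell (background 5.4%): the midzone motor subunit Kif23 (-0.86 ± 0.22, limma adjusted p = 0.0264), Nusap1 (-0.73 ± 0.21, limma adjusted p = 0.0443), Aurkb (-0.71 ± 0.18, limma adjusted p = 0.0265), Birc5 (-0.69 ± 0.14, limma adjusted p = 0.00742), the cytokinesis protein Racgap1 (-0.46 ± 0.13, limma adjusted p = 0.0427) and Cdk1 (-0.45 ± 0.12, limma adjusted p = 0.0347).

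**Figure D3:**
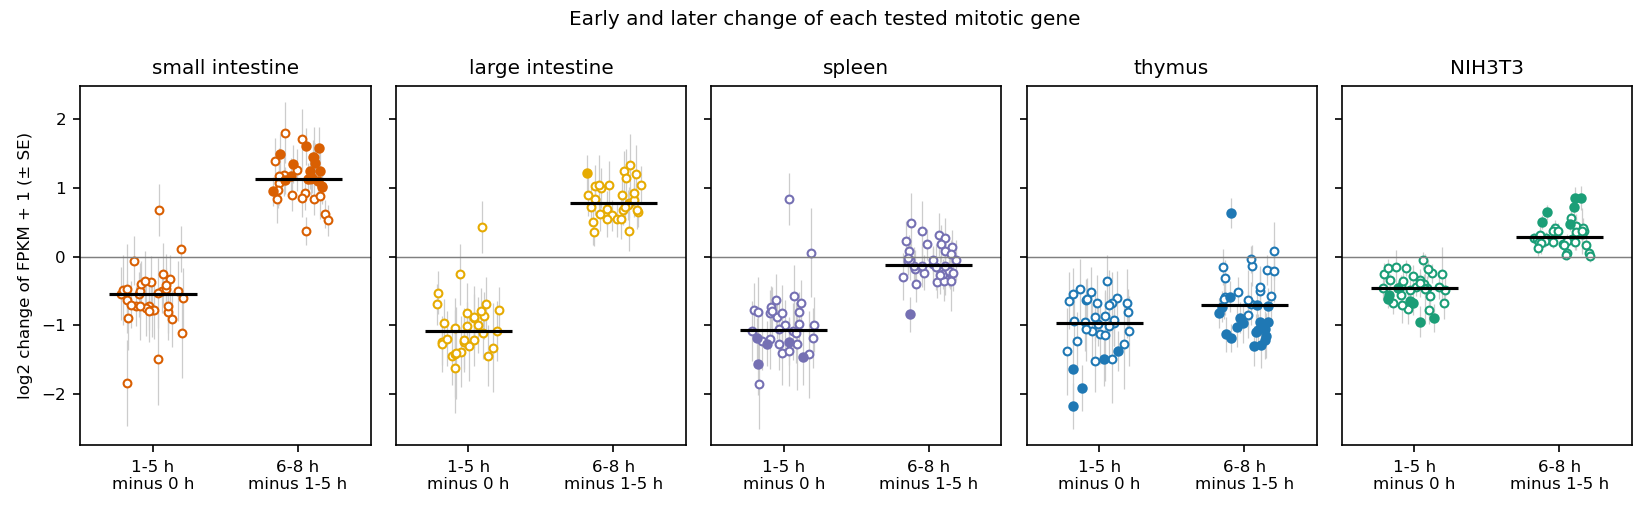
Log2 change of FPKM + 1 ± SE of each tested mitotic gene at 1 to 5 h minus 0 h and at 6 to 8 h minus 1 to 5 h in each system. Filled points passed the adjusted threshold, open points did not, and black bars are medians. The second change lies above 0 in small intestine (median 1.13), large intestine (0.78) and NIH3T3 (0.29) and below it in thymus (-0.71). In spleen 1 gene, Ckap2, passed in the second change, below 0. Both changes share the 1 to 5 h libraries.

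In the second interval the average of the intestines differed from that of the lymphoid organs. The change from 1 to 5 h to 6 to 8 h, averaged over the intestines minus its average over spleen and thymus, was higher in 31 of 31 genes tested, where 13.1% of 9980 genes were higher. The differences ran from 0.87 (Kif4, a chromosome-bound kinesin) to 1.74 (Nuf2), with a median of 1.40. The largest were Nuf2 (1.74 ± 0.26, limma adjusted p = 3.84e-05), Ckap2 (1.73 ± 0.25, limma adjusted p = 3.21e-05), the ubiquitin-conjugating enzyme Ube2c (1.71 ± 0.43, limma adjusted p = 0.00416), Prc1 (1.66 ± 0.29, limma adjusted p = 1.64e-04), Kif11 (1.65 ± 0.25, limma adjusted p = 5.12e-05) and Top2a (1.64 ± 0.27, limma adjusted p = 1.13e-04). Between 29 and 33 genes were called when any 1 library was left out. Spleen and thymus were not alike within their average. In spleen the median gene stood at -1.27 to -0.84 against 0 h over 1 to 5 h. At 6, 7 and 8 h it stood at -1.42, -0.97 and -0.84. In thymus the median gene stood at -1.18 to -0.69 over 1 to 5 h, and at -1.44, -1.71 and -1.97 at 6, 7 and 8 h. S phase genes differed too, with 29 of 30 higher and a median of 1.12.

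NIH3T3 differed from the average of the lymphoid organs in part of the genes. Its change in the second interval was higher than the average of spleen and thymus in 14 of 31 genes, where 7.54% of 9024 genes were higher, with a median of 0.76. The largest were Nusap1 (1.22 ± 0.32, limma adjusted p = 0.00685), Kif11 (1.06 ± 0.27, limma adjusted p = 0.00689), Ckap2 (1.03 ± 0.27, limma adjusted p = 0.00698), Top2a (1.01 ± 0.29, limma adjusted p = 0.0141), Prc1 (0.92 ± 0.31, limma adjusted p = 0.0377) and Ncapg (0.90 ± 0.31, limma adjusted p = 0.0381). This count was 2 with windows of 1 to 4 h and 5 to 8 h, 7 with a pseudocount of 0.1, 6 without the NIH3T3 4 h library, and 7 to 9 without the NIH3T3 library at 2, 3, 6, 7 or 8 h, the thymus library at 1, 7 or 8 h or the spleen library at 6 h. Against the intestines, 0 of 31 genes passed, 18 had an unadjusted p below 0.05 and 31 of 31 were negative (median -0.64), beside a background of 0%. The nearest was Hmmr (-1.03 ± 0.29, limma adjusted p = 0.245), with a 95% interval of -1.62 to -0.44.

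The first interval gave no difference past the threshold. For the intestines minus spleen and thymus, 0 of 31 genes passed and 2 had an unadjusted p below 0.05, beside a background of 0.731%. These were Plk1 (0.91 ± 0.33, limma adjusted p = 0.236), with a 95% interval of 0.24 to 1.59, and Aurka (1.03 ± 0.45, limma adjusted p = 0.361), with an interval of 0.10 to 1.96. For NIH3T3 minus the intestines, 0 of 31 passed and 0 had an unadjusted p below 0.05 (background 0.51%, median 0.41). For NIH3T3 minus spleen and thymus, 0 of 31 passed and 1 had an unadjusted p below 0.05 (background 1.39%, median 0.57). That gene was Plk1, with a difference of 0.88 ± 0.40 and an interval of 0.07 to 1.70. Each of these differences rests on single 0 h libraries.

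Among the genes that open mitosis, Cdk1 (chr10:69335146-69352912), the catalytic partner of cyclin B, showed the pattern of its organ. In small intestine Cdk1 measured 8.501 FPKM at 0 h, 7.18, 3.64, 4.69, 9.08 and 9.42 FPKM from 1 to 5 h, 18.5, 12.6 and 19.5 FPKM from 6 to 8 h and 9.55 FPKM at 24 h. The 3 libraries at 6 to 8 h were above all earlier ones. In large intestine Cdk1 measured 10.01 FPKM at 0 h, 3.32, 5.12, 4.16, 2.77 and 6.25 FPKM from 1 to 5 h, 5.86, 10.5 and 4.55 FPKM from 6 to 8 h and 4.37 FPKM at 24 h, with 7 h alone above the 0 h value. In spleen it measured 16.1 FPKM at 0 h, 10.3, 6.71, 5.700, 7.44 and 3.86 FPKM from 1 to 5 h, 5.94, 5.02 and 8.02 FPKM from 6 to 8 h and 5.64 FPKM at 24 h. In thymus it measured 41.1 FPKM at 0 h, 34.6, 18.3, 16.8, 12.9 and 22.3 FPKM from 1 to 5 h, 10.98, 9.34 and 8.77 FPKM from 6 to 8 h and 6.22 FPKM at 24 h, and each library from 2 h on was below the 1 h library. NIH3T3 cells held 86.6 FPKM at 0 h, 72.6, 72.4, 66.4, 61.96 and 66.7 FPKM from 1 to 5 h, 67.2, 66.7 and 73.4 FPKM from 6 to 8 h, 70.7, 74.95, 75.8 and 83.6 FPKM from 9 to 12 h and 63.2 FPKM at 24 h, and every irradiated library was below the 0 h one.

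Plk1 (chr7:122159435-122169884), the kinase that drives mitotic entry, centrosome maturation and cytokinesis, measured 5.81 FPKM at 0 h, 3.63, 2.002, 3.63, 5.08 and 4.53 FPKM from 1 to 5 h, 9.04, 7.63 and 8.498 FPKM from 6 to 8 h and 5.71 FPKM at 24 h in small intestine. Its 6 to 8 h libraries were above the 0 h and the 1 to 5 h libraries (1.01 ± 0.22, limma adjusted p = 0.0338). Large intestine held 14.5 FPKM at 0 h, 7.73, 6.57, 9.29, 6.45 and 10.1 FPKM from 1 to 5 h, 16.9, 13.7 and 11.8 FPKM from 6 to 8 h and 9.002 FPKM at 24 h. Spleen held 8.06 FPKM at 0 h, 2.903, 2.13, 2.77, 3.54 and 2.604 FPKM from 1 to 5 h, 2.04, 3.32 and 4.86 FPKM from 6 to 8 h and 1.71 FPKM at 24 h, with every irradiated library below 0 h. Thymus held 26.5 FPKM at 0 h, 4.32, 4.799, 5.38, 7.21 and 11.97 FPKM from 1 to 5 h, 6.62, 5.91 and 3.92 FPKM from 6 to 8 h and 0.782 FPKM at 24 h. The 5 h thymus library was a local high between lower ones. NIH3T3 held 21.03 FPKM at 0 h, 19.5, 10.4, 10.1, 9.58 and 15.4 FPKM from 1 to 5 h, 20.4, 22.3 and 28.2 FPKM from 6 to 8 h, 24.1, 23.6, 21.5 and 27.4 FPKM from 9 to 12 h and 20.3 FPKM at 24 h. Its 3 libraries at 6 to 8 h were above all 5 at 1 to 5 h.

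Cdc20 (chr4:118432901-118437343) activates the anaphase-promoting complex, the ubiquitin ligase that ends metaphase. Small intestine held 7.06 FPKM at 0 h, 4.36, 3.05, 2.498, 3.48 and 5.36 FPKM from 1 to 5 h, 13.9, 7.96 and 15.5 FPKM from 6 to 8 h and 7.26 FPKM at 24 h. The 6 to 8 h libraries were above the 0 h and all 1 to 5 h libraries. Large intestine held 8.41 FPKM at 0 h, 1.15, 2.51, 3.76, 1.84 and 3.96 FPKM from 1 to 5 h, 8.99, 9.41 and 4.305 FPKM from 6 to 8 h and 3.42 FPKM at 24 h. Spleen held 14.01 FPKM at 0 h, 6.23, 5.01, 5.79, 8.602 and 4.77 FPKM from 1 to 5 h, 4.59, 8.43 and 10.04 FPKM from 6 to 8 h and 2.43 FPKM at 24 h. Both organs were lower at each hour from 1 to 5 h than at 0 h. Thymus held 45.7 FPKM at 0 h, 9.64, 12.8, 15.9, 16.1 and 25.9 FPKM from 1 to 5 h, 18.9, 13.5 and 10.4 FPKM from 6 to 8 h and 1.49 FPKM at 24 h, with low values at 1 h, higher ones up to 5 h and lower ones after it. NIH3T3 held 76.97 FPKM at 0 h, 59.1, 41.9, 40.95, 35.9 and 48.7 FPKM from 1 to 5 h, 54.4, 66.1 and 81.9 FPKM from 6 to 8 h, 70.4, 72.6, 72.9 and 90.3 FPKM from 9 to 12 h and 72.4 FPKM at 24 h. The other member of this class, Ube2c, measured 87.2 FPKM in spleen at 4 h against 43.5 FPKM at 0 h, while 34 of 36 genes were below 0 h in that library.

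Birc5 (chr11:117849237-117855743), or survivin, belongs with Aurkb and Cdca8 to the chromosomal passenger complex, which corrects kinetochore attachment. Small intestine held 29.1 FPKM at 0 h, 24.2, 12.2, 16.6, 17.5 and 17.8 FPKM from 1 to 5 h, 32.1, 27.7 and 38.97 FPKM from 6 to 8 h and 20.9 FPKM at 24 h. Its 6 to 8 h libraries were above all 1 to 5 h libraries, and its change did not pass the threshold (0.88 ± 0.33, limma adjusted p = 0.271). Large intestine held 21.5 FPKM at 0 h, 4.12, 11.9, 10.3, 6.07 and 10.8 FPKM from 1 to 5 h, 16.5, 15.96 and 6.21 FPKM from 6 to 8 h and 6.50 FPKM at 24 h. Spleen held 50.4 FPKM at 0 h, 23.5, 17.7, 20.2, 24.2 and 11.5 FPKM from 1 to 5 h, 9.42, 21.5 and 22.97 FPKM from 6 to 8 h and 6.88 FPKM at 24 h. Every irradiated library of both organs was below 0 h. Thymus held 129 FPKM at 0 h, 107, 81.6, 71.7, 58.8 and 84.1 FPKM from 1 to 5 h, 39.9, 38.6 and 28.1 FPKM from 6 to 8 h and 7.02 FPKM at 24 h, with all 6 to 8 h libraries below all 1 to 5 h ones. NIH3T3 held 125 FPKM at 0 h, 107, 100.4, 83.9, 76.98 and 89.4 FPKM from 1 to 5 h, 96.4, 89.6 and 98.5 FPKM from 6 to 8 h, 98.4, 96.1, 97.3 and 113 FPKM from 9 to 12 h and 77.3 FPKM at 24 h. The drop over 1 to 5 h in NIH3T3 was -0.46 ± 0.11, and every irradiated library was below 0 h.

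Cenpf (chr1:189640606-189688107) is a large protein of the outer kinetochore. In small intestine it measured 1.43 FPKM at 0 h, 0.335, 0.172, 0.529, 0.481 and 0.953 FPKM from 1 to 5 h, 2.58, 1.44 and 2.67 FPKM from 6 to 8 h and 1.301 FPKM at 24 h, at low levels throughout. Its 1 to 5 h libraries were all below the 0 h and the 6 to 8 h libraries (1.11 ± 0.19, limma adjusted p = 0.00863). Cenpf passed the filter on low FPKM in small intestine only through its 6 to 8 h libraries, since the others averaged 0.743 FPKM, and without the filter its adjusted p by limma was 0.00958. Large intestine held 2.06 FPKM at 0 h, 0.499, 0.208, 0.519, 0.231 and 0.7296 FPKM from 1 to 5 h, 1.84, 1.69 and 1.25 FPKM from 6 to 8 h and 0.557 FPKM at 24 h, in the same arrangement except that 6 to 8 h lay below 0 h. Spleen held 3.46 FPKM at 0 h, 1.17, 1.57, 1.57, 2.46 and 1.21 FPKM from 1 to 5 h, 0.955, 1.79 and 1.92 FPKM from 6 to 8 h and 0.5104 FPKM at 24 h. Thymus held 13.9 FPKM at 0 h, 5.41, 3.65, 3.91, 4.38 and 7.11 FPKM from 1 to 5 h, 4.76, 4.88 and 4.21 FPKM from 6 to 8 h and 1.202 FPKM at 24 h. In both organs every irradiated library was below 0 h. NIH3T3 held 8.73 FPKM at 0 h, 9.61, 4.52, 4.63, 5.78 and 6.77 FPKM from 1 to 5 h, 7.08, 9.096 and 8.31 FPKM from 6 to 8 h, 2.76, 12.3, 12.7 and 7.63 FPKM from 9 to 12 h and 8.93 FPKM at 24 h. The 9 h NIH3T3 library was the lowest of its 14 for Cenpf.

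Hmmr (chr11:40701388-40733464), a spindle assembly protein, was the 1 gene called in both intestines. In small intestine it measured 4.13 FPKM at 0 h, 2.298, 0.362, 1.15, 2.83 and 3.14 FPKM from 1 to 5 h, 7.26, 7.03 and 7.598 FPKM from 6 to 8 h and 2.61 FPKM at 24 h. In large intestine it measured 4.76 FPKM at 0 h, 1.05, 0.815, 1.98, 0.992 and 2.97 FPKM from 1 to 5 h, 5.09, 6.61 and 2.89 FPKM from 6 to 8 h and 1.202 FPKM at 24 h. The lowest small intestine value was at 2 h, and in both organs the 6 and 7 h libraries were above all of 1 to 5 h and 0 h. Spleen held 7.04 FPKM at 0 h, 2.41, 3.03, 3.47, 4.37 and 2.32 FPKM from 1 to 5 h, 2.72, 2.98 and 4.38 FPKM from 6 to 8 h and 1.25 FPKM at 24 h. Thymus held 22.7 FPKM at 0 h, 8.94, 8.44, 10.2, 10.2 and 13.5 FPKM from 1 to 5 h, 9.297, 7.67 and 7.02 FPKM from 6 to 8 h and 2.12 FPKM at 24 h. Both stayed below 0 h at every hour. NIH3T3 held 24.6 FPKM at 0 h, 25.2, 15.8, 16.05, 16.5 and 17.2 FPKM from 1 to 5 h, 21.6, 23.6 and 25.3 FPKM from 6 to 8 h, 27.1, 30.4, 34.2 and 29.7 FPKM from 9 to 12 h and 23.3 FPKM at 24 h, with all 4 libraries from 9 to 12 h above 0 h.

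Ect2 (chr3:27097222-27154253) acts at the equator of the dividing cell and stands for the cytokinesis genes. Small intestine held 5.84 FPKM at 0 h, 2.25, 3.89, 4.66, 4.72 and 7.29 FPKM from 1 to 5 h, 7.37, 9.405 and 10.8 FPKM from 6 to 8 h and 7.28 FPKM at 24 h. Large intestine held 7.34 FPKM at 0 h, 1.83, 2.498, 3.41, 1.57 and 6.73 FPKM from 1 to 5 h, 6.27, 6.84 and 4.62 FPKM from 6 to 8 h and 5.302 FPKM at 24 h. The 6 to 8 h libraries in small intestine were above all 1 to 5 h libraries, while large intestine overlapped. Spleen held 4.85 FPKM at 0 h, 2.45, 2.85, 2.92, 3.73 and 2.16 FPKM from 1 to 5 h, 2.81, 2.65 and 4.15 FPKM from 6 to 8 h and 1.46 FPKM at 24 h. Thymus held 30.9 FPKM at 0 h, 16.5, 14.1, 15.99, 13.1 and 19.8 FPKM from 1 to 5 h, 8.56, 8.49 and 6.07 FPKM from 6 to 8 h and 2.91 FPKM at 24 h. The 6 to 8 h thymus libraries were below all 1 to 5 h ones (-0.96 ± 0.25, limma adjusted p = 0.00494), whereas those of spleen overlapped. NIH3T3 held 28.7 FPKM at 0 h, 25.6, 17.3, 21.5, 18.7 and 20.9 FPKM from 1 to 5 h, 26.6, 30.6 and 26.3 FPKM from 6 to 8 h, 31.2, 28.4, 32.3 and 24.97 FPKM from 9 to 12 h and 23.8 FPKM at 24 h. Of the 6 genes of this class, 4 rose in small intestine over 6 to 8 h, where 0.439% of all genes rose. In thymus 3 fell, where 13.4% of all genes fell. Without the 8 h library, 0 of the small intestine calls remained.

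Top2a (chr11:98992947-99024199) is the topoisomerase that untangles sister chromatids, and it is also made in S phase. Small intestine held 18.8 FPKM at 0 h, 17.3, 6.48, 11.4, 15.5 and 17.7 FPKM from 1 to 5 h, 37.03, 20.8 and 33.1 FPKM from 6 to 8 h and 14.9 FPKM at 24 h. Large intestine held 17.8 FPKM at 0 h, 8.12, 10.5, 8.25, 5.03 and 11.9 FPKM from 1 to 5 h, 16.01, 18.1 and 9.51 FPKM from 6 to 8 h and 5.85 FPKM at 24 h. The 6 to 8 h libraries in small intestine were above all 1 to 5 h ones. Spleen held 41.1 FPKM at 0 h, 26.04, 18.7, 16.7, 18.8 and 15.3 FPKM from 1 to 5 h, 12.03, 15.6 and 19.7 FPKM from 6 to 8 h and 9.896 FPKM at 24 h. Thymus held 190.1 FPKM at 0 h, 181, 126, 113, 88.1 and 117 FPKM from 1 to 5 h, 60.4, 54.5 and 42.00 FPKM from 6 to 8 h and 12.8 FPKM at 24 h. In thymus the 1 h library was near the 0 h one, and the fall came later. NIH3T3 held 99.2 FPKM at 0 h, 99.95, 85.1, 85.9, 83.2 and 88.2 FPKM from 1 to 5 h, 101, 114 and 105 FPKM from 6 to 8 h, 114, 109.96, 122 and 98.5 FPKM from 9 to 12 h and 79.1 FPKM at 24 h.

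The level at 1 h relative to 0 h ranged widely among the genes in thymus. At 1 h, Pif1 was at 6.77% of its 0 h FPKM, Plk1 at 16.3%, Cdc20 at 21.1%, Aurka at 28.2% and Cdc25c at 30.5%. In the same library Top2a stood at 95.5%, Nusap1 at 103%, Nuf2 at 105%, Bub1 at 111% and Ncapg at 119%. These are the 5 lowest and 5 highest of the 36 genes. Kinetochore proteins lay apart, with Cenpf at 38.96% and Nuf2 at 105%, and Cdk1 stood at 84.3%. In spleen the 5 lowest of thymus were at 19.5% (Pif1), 36.03% (Plk1), 44.5% (Cdc20), 33.2% (Aurka) and 22.6% (Cdc25c), and Ncapg was at 50.3%. In NIH3T3, Pif1 was at 36.6% and Aurka at 66.2%, while Plk1 was at 92.8%. Each percentage compares 1 library with 1 library and has no replicate check.

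**Figure D4:**
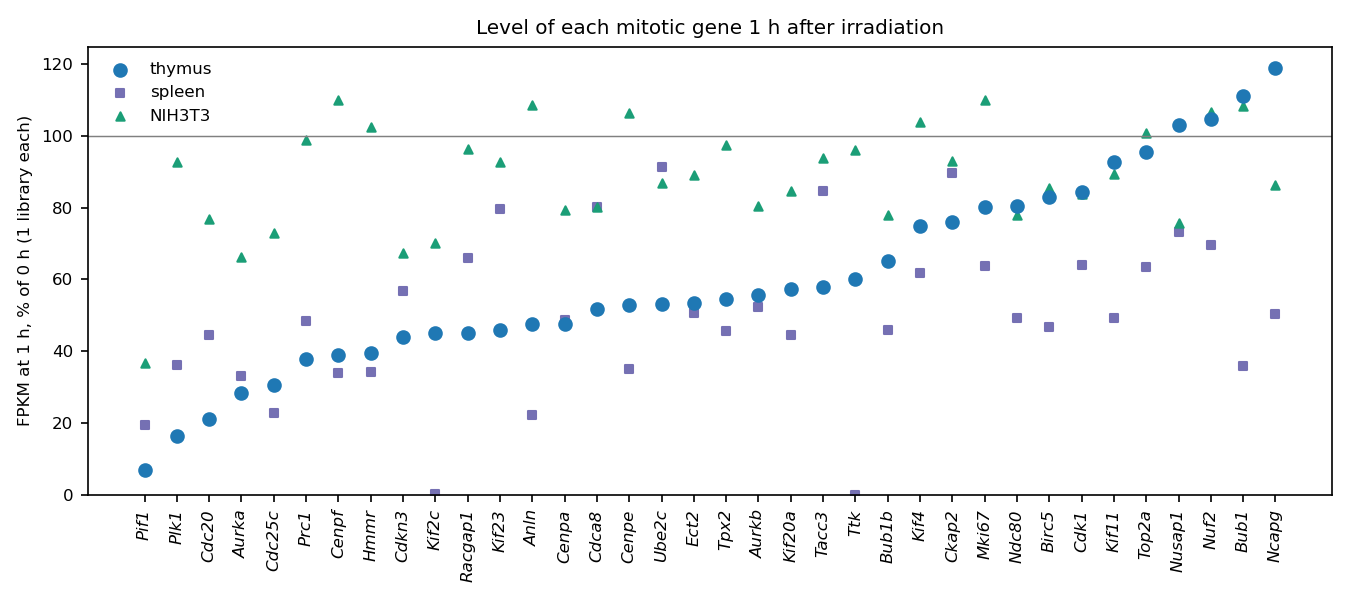
FPKM at 1 h as a percentage of 0 h for each mitotic gene in thymus (circles), spleen (squares) and NIH3T3 (triangles), with 1 library per hour and genes ordered by the thymus value. Thymus runs from 6.77% (Pif1) to 119% (Ncapg), and NIH3T3 lies higher for most genes.

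A few genes departed from the rest. Ckap2 exceeded its 0 h value early in spleen and small intestine: in spleen it measured 5.52 FPKM at 0 h, 4.95, 9.99, 17.1, 17.6 and 8.82 FPKM from 1 to 5 h, 6.98, 4.22 and 5.68 FPKM from 6 to 8 h and 1.94 FPKM at 24 h. In small intestine it measured 3.79 FPKM at 0 h, 3.56, 6.05, 10.4, 6.89 and 8.05 FPKM from 1 to 5 h, 14.7, 11.1 and 18.6 FPKM from 6 to 8 h and 6.68 FPKM at 24 h. Every small intestine library from 2 h on was above 0 h, whereas 1, 7 and 24 h in spleen were below it. Pif1 in thymus measured 9.102 FPKM at 0 h, 0.616, 0.779, 0.907, 1.36 and 3.39 FPKM from 1 to 5 h, 1.92, 2.58 and 3.06 FPKM from 6 to 8 h and 0.302 FPKM at 24 h. Of the first 8 h, it was lowest at 1 h and highest at 5 h. Kif2c and Ttk were listed at or near 0 in several libraries of both intestines and of spleen, next to libraries with several FPKM. In small intestine Kif2c was listed at 0.00328, 0.00329 and 0.00328 FPKM at 1, 2 and 4 h, against 1.98 FPKM at 0 h. Such listings can be failed estimates, and Kif2c is among the 31 genes of the difference between organs.

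Related lists gave the surroundings of these changes. Of 46 tested other mitotic genes, 11 rose in small intestine over 6 to 8 h, where 0.439% of all genes rose. Among them were Ccnb1, the mitotic cyclin (1.77 ± 0.27, limma adjusted p = 0.002497), the passenger-complex scaffold Incenp (0.81 ± 0.19, limma adjusted p = 0.0452) and the centrosomal kinase Nek2 (1.33 ± 0.30, limma adjusted p = 0.0452). In thymus 34 of 58 fell over the same hours, where 13.4% of all genes fell. By 24 h 54 of 58 fell, where 18.6% of all genes fell. Ccnb1 fell in thymus over 1 to 5 h (-1.999 ± 0.40, limma adjusted p = 0.00489). In that list Gtse1 and Psrc1, which p53 is known to induce in mouse cells, rose over the first 5 h in spleen (3.26 ± 0.37, limma adjusted p = 6.07e-06 for Gtse1 and 3.30 ± 0.50, limma adjusted p = 2.26e-04 for Psrc1). Of the S phase genes, 0 of 31 rose in small intestine over 6 to 8 h and 7 had an unadjusted p below 0.05, with a median of 0.28. In thymus 32 of 32 fell (median -1.51), where 13.4% of all genes fell. In NIH3T3 5 of 32 fell, where 1.44% of all genes fell.

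Of 22 genes listed as regulators of the cell cycle, 11 fell in thymus over 6 to 8 h, where 13.4% of all genes fell. They included Mybl2, an activator of G2 and M genes (-1.45 ± 0.17, limma adjusted p = 9.55e-07). Mybl2 in thymus measured 6.52 FPKM at 0 h, 7.08, 6.06, 4.62, 3.14 and 2.77 FPKM from 1 to 5 h, 1.57, 0.887 and 0.686 FPKM from 6 to 8 h and 0.375 FPKM at 24 h, with each library from 2 h on below the library before it. Foxm1, the activator that binds these promoters in G2, measured 1.44 FPKM at 0 h, 0.683, 0.645, 0.804, 0.945 and 1.07 FPKM from 1 to 5 h, 2.1, 1.62 and 1.297 FPKM from 6 to 8 h and 1.09 FPKM at 24 h in small intestine, where its highest value was at 6 h. Of 19 regulators tested in small intestine over 6 to 8 h, 0 were called and 5 had an unadjusted p below 0.05. Cdkn1a measured 199 FPKM at 0 h, 386, 426, 517, 485 and 356 FPKM from 1 to 5 h, 332, 330.2 and 325 FPKM from 6 to 8 h and 304 FPKM at 24 h in small intestine, and all 3 libraries at 6 to 8 h were below all 5 at 1 to 5 h (change not called, -0.38 ± 0.25, limma adjusted p = 0.566). In large intestine it measured 169 FPKM at 0 h, 284, 348, 549, 467 and 716 FPKM from 1 to 5 h, 476, 716 and 352 FPKM from 6 to 8 h and 303 FPKM at 24 h, and the 6 to 8 h libraries overlapped those at 1 to 5 h. In spleen Cdkn1a measured 4.45 FPKM at 0 h, 136, 220.2, 256, 276 and 311 FPKM from 1 to 5 h, 296, 219 and 216 FPKM from 6 to 8 h and 179.9 FPKM at 24 h. In thymus it measured 9.88 FPKM at 0 h, 48.3, 137, 228, 268 and 233 FPKM from 1 to 5 h, 274, 254 and 319.8 FPKM from 6 to 8 h and 196 FPKM at 24 h, and all libraries from 1 h on were above 0 h in both organs. NIH3T3 held 89.7 FPKM at 0 h, 238, 291, 156, 187 and 188 FPKM from 1 to 5 h, 179.8, 171 and 186 FPKM from 6 to 8 h, 156, 172, 169 and 183 FPKM from 9 to 12 h and 204 FPKM at 24 h.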

How the data were processed

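RNA was sequenced in 40 tissue libraries and 14 NIH3T3 libraries. Per the submitters' processing notes, tools used include TopHat2 2.1.0 and Cufflinks 2.1.1 with the mouse build mm10. The deposited values are FPKM as the authors made them; the table's header names no unit, so it was read from these notes and the values, and any further scaling between libraries is not known. FPKM is relative to the library, so that a gain of a few abundant transcripts lowers all others. Fragment totals were not at hand, so no counting interval was computed.

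Tests used limma 3.58.1 in R 4.3.3 on log2(FPKM + 1) with a mean per system and window (0 h, 1 to 2 h, 3 to 5 h, 6 to 8 h, 24 h and, in NIH3T3, 9 to 12 h). The 5 libraries at 1 to 5 h were weighted equally. All 40 tissue libraries entered a common fit (20 residual degrees of freedom), NIH3T3 a separate one (8), and differences with NIH3T3 a fit of all 54 (28). The filter was an average FPKM of 1 or more in each system compared. A gene was called when its two-sided p, after Benjamini-Hochberg adjustment over all genes tested, was below 0.05. Single libraries at 0 h and 24 h were assumed to vary like the libraries within windows. The procedure was also run on simulated data with equal, independent noise, no change within unaltered windows and no foreign transcripts in single libraries. Only changes from 1 to 5 h to 6 to 8 h were scored there. That run does not bear on contrasts with the single 0 h and 24 h libraries. Alternatives were a pseudocount of 0.1, no filter, quantile normalization, median ratio scaling, separate fits, and windows of 1 to 4 h and 5 to 8 h. Each library other than those at 0 h and 24 h was also left out in turn. Large intestine at 1 and 2 h and spleen at 6 h were left out together. A block for the hour was added after the data were seen.

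The members and lists were chosen with earlier results of these data known. Per comparison, up to 6 called members with the largest change are named, plus any called member of the opposite direction; 1 gene of each of the 8 role classes is given in every library. Other genes named from the related lists, the genes compared at 1 h and those with unusual profiles were chosen after their values were seen. Promoters came from RefSeq, GRCm38.p6.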

Additional observations from a re-analysis of the deposited data

Results flagged for a closer look

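In NIH3T3 at 9 to 12 h, 2 of the 8 representative genes had a library far from the other 3. Cdc20 measured 90.3 FPKM at 12 h, against 70.4 to 72.9 FPKM in the others, and Birc5 measured 113 FPKM at 12 h, against 96.1 to 98.4 FPKM. Chance gives such a gap in about 1 in 20 groups. The change at 6 to 8 h against 1 to 5 h differed between the averages of the intestines and of the lymphoid organs in 31 mitotic genes. That was 31 of 31 tested, where 13.1% of all genes were higher in the intestines. The change differed between NIH3T3 and the average of the lymphoid organs in 14 of 31, where 7.54% of all genes were higher in NIH3T3. Each was a test of the difference. Leaving out 1 library gave 29 to 33 for the first and 6 to 19 for the second.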

How the results depend on the processing

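The labels number no replicates, but the hours 1 to 8 recur in each system, so an effect of the hour shared by the systems was added as a replicate block after the data were seen. With the block 0 genes were called in large intestine at 6 to 8 h against 1 to 5 h, 31 for the intestines minus the lymphoid organs and 13 for NIH3T3 minus the lymphoid organs, and no other count of calls moved by over 1.5 times. Deviations across genes were correlated between libraries of the same hour, for 48 combinations of organ pair and hour (median r 0.0408). Values at 1 h and 2 h repeat each other, since the deviations of a 2-library window mirror each other. Of the 48, 5 were above 0.1 and 15 below 0. Spleen with thymus gave 0.324 at 3 h and 0.302 at 5 h. Large intestine at 5 h gave 0.183 with spleen, 0.149 with thymus and 0.148 with small intestine. No result reversed its sign. Called mitotic genes are counted here. With separate fits, 0 rose in small intestine at 6 to 8 h against 1 to 5 h, 0 in large intestine and 0 changed in spleen, and at 1 to 5 h against 0 h 2 fell in spleen and 3 in thymus. With a pseudocount of 0.1, counts at 1 to 5 h were 1 in spleen and 1 in thymus, at 6 to 8 h 0 in large intestine, and 7 for NIH3T3 minus the lymphoid organs. Without a filter, NIH3T3 had 0 at 1 to 5 h and 2 at 6 to 8 h, and large intestine 2 at 6 to 8 h. Quantile normalization gave 0 in large intestine at 6 to 8 h, 0 in NIH3T3 at 1 to 5 h and 2 in NIH3T3 at 24 h. Windows of 1 to 4 h and 5 to 8 h gave, for the first, 0 in spleen and 1 in NIH3T3, and for the second, 11 in thymus, 6 in large intestine, 0 in spleen and 2 for NIH3T3 minus the lymphoid organs. Without the libraries at 1 and 2 h of large intestine and 6 h of spleen, large intestine had 1 at 1 to 5 h and 0 at 6 to 8 h, and NIH3T3 minus the lymphoid organs 9. The cause was not tested. Leaving out each library gave, at 1 to 5 h, 0 to 17 in NIH3T3, 0 to 3 in large intestine, 3 to 6 in thymus and 2 to 6 in spleen. At 6 to 8 h it gave 0 to 12 in NIH3T3, 0 to 23 in small intestine, 0 to 13 in large intestine, 10 to 21 in thymus, 0 to 1 in spleen, 29 to 33 for the intestines minus the lymphoid organs and 6 to 19 for NIH3T3 minus the lymphoid organs. The single 0 h and 24 h libraries were not left out. Changes at 24 h therefore have no such check, and those at 1 to 5 h have none on their 0 h library. Depth is unknown, so what it limits was not measured.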
